A study of Rattus norvegicus with 10 samples.

Results

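Astrocytes carry much of the hippocampus's glutamate clearance, and 7 of their genes were followed here in rats from 2 selectively bred lines: Gfap (ENSRNOG00000002919), Aqp4 (ENSRNOG00000016043), S100b (ENSRNOG00000001295), Gja1 (ENSRNOG00000000805), Slc1a2 (ENSRNOG00000005479), Slc1a3 (ENSRNOG00000016163) and Glul (ENSRNOG00000049560). The genes were chosen by name and identifier, with no cut on their values, and all 7 were among the 16643 genes of the table. The table carries no gene symbols, so the symbols are those that came with the identifiers. Polyadenylated RNA of the whole hippocampus was sequenced in 10 adult male rats, 5 bred High Responders (bHR) and 5 bred Low Responders (bLR), lines selected for a high or low locomotor response to a new environment. Both lines were from breeding generation 43, both were kept in standard housing and given daily vehicle injections over 14 days, and both were killed at postnatal day 92, 1 hour after a session on the elevated plus maze, an anxiety test. Each rat is 1 animal and 1 library. The spread reported here is between animals, and any from preparing their samples cannot be told apart from it. A social interaction score, with no unit in the labels, was also available for each rat.

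As background, astrocytes take up synaptic glutamate through Slc1a2 (Glt-1) and Slc1a3 (GLAST), and glutamine synthetase, the product of Glul, turns it into glutamine, which neurons use to make transmitter again. Gja1 encodes connexin 43, the main gap junction protein that couples astrocytes into networks. Gfap encodes the intermediate filament used to recognise astrocytes, Aqp4 the water channel of their endfeet, and S100b a calcium-binding protein. In whole tissue, fewer astrocytes and less RNA per astrocyte cannot be told apart, and neither can RNA of these genes from other cells. Markers of other cell types were not analysed here, since their identifiers could not be paired with symbols, and their part in the values below was not tested.

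The libraries held 29106105 to 48663164 reads, and each of the 7 genes had between 10292 and 68119 reads in every library. At these depths the counting error of a log2 value was at most 0.014 (SE), below the spread between rats for every gene. The median log2 value over all genes lay between 4.095 and 4.121 in the 10 libraries. The library of bLR replicate 5 differed from the rest in that 4.06% of its reads came from 1 gene, against at most 2.14% in any other library. Chi-square per gene between its read counts and those of the other bLR libraries was 131 to 190. Among the other bLR libraries it was 8.8 to 24.1. How many genes account for the larger values was not tested. None of the 7 genes had its lowest or highest value of all rats in that library, but Slc1a2 and Gja1 had their highest bLR value there. Levels are given in RPM, reads scaled by the authors to an effective library size. They are not scaled to transcript length, so levels are compared between rats and not between genes.

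The stretches just upstream of the annotated transcription starts of Glul, Slc1a3, Gja1 and Gfap are shown because the results turn on these genes: Glul was the gene whose lines did not overlap, Slc1a3 was next to it by p, Gja1 had the most negative correlation with Gfap, and Gfap varied most among rats. RefSeq's table (GRCr8) held windows for all 7 genes, 12 in all, of which the 250 bases before the start were used. For Glul it lists 2 starts, the first window at chr13:68519250-68519499, plus strand, and the second at chr13:68575816-68576065, plus strand. The Slc1a3 window is at chr2:59557809-59558058, minus strand, the most upstream of its starts, the Gja1 window at chr20:36302314-36302563, plus strand, and the Gfap window at chr10:88361662-88361911, minus strand. Sequences run 5′ to 3′ on the strand of the gene, and capitals mark the letters CCAAT and GGGCGG (the CCAAT box and the GC box) on either strand.
Glul, first window: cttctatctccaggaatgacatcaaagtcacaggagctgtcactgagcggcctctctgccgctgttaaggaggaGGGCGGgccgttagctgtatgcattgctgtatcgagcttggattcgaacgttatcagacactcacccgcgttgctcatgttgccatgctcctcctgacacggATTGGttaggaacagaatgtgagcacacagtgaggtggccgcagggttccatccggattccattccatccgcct
Glul, second window: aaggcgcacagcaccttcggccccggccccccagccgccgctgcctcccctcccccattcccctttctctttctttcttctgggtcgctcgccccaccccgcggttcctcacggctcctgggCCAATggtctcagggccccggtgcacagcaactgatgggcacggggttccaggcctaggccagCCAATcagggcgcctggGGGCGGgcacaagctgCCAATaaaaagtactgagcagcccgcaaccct
Slc1a3: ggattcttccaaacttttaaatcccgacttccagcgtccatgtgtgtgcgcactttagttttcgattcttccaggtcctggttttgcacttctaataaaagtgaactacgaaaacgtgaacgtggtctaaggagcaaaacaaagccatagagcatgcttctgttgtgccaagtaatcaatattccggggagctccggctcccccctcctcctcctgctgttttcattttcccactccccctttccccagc
Gja1: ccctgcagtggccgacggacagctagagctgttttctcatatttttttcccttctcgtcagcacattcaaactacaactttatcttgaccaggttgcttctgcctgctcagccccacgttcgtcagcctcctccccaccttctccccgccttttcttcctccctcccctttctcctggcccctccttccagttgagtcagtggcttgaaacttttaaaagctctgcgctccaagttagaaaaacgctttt
Gfap: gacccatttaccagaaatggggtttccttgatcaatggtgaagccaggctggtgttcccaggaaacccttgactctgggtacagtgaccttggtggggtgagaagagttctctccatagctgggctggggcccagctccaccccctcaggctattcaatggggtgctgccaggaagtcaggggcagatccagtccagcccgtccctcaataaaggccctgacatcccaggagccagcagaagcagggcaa
The second Glul window held CCAAT 3 times, at 128, 65 and 32 bases before the start, and GGGCGG at 48 bases, in a stretch of 67.2% G and C. The first Glul window held CCAAT once, on the other strand, and GGGCGG once. The letters of neither box were in the Slc1a3, Gja1 or Gfap windows shown. Of the 12 windows of the 7 genes, 4 held CCAAT, from Aqp4, Glul and S100b, and 3 held GGGCGG, from Aqp4 and Glul. Over all 33469 rat windows of this length, 34.0% held CCAAT and 30.5% held GGGCGG. The NFI palindrome and the STAT site TTCNNNGAA, searched on both strands because these factors act on astrocyte genes, were in none of the 12 windows of the 7 genes, and in 0.0359% and 7.67% of all windows. The sequence AGAACA, a half-site of the glucocorticoid receptor, was in 1 of the 12 windows, of Slc1a2, and in 17.5% of all windows. These matches describe letters only.

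The comparison of the lines asked whether whole-hippocampus levels of these 7 transcripts differ between rats bred for opposite responses to novelty. All 7 genes had a higher mean in bHR than in bLR, by 5.48% to 15.1%, and none passed the test over all genes (limma, Benjamini-Hochberg adjusted p under 0.05). Of all genes tested, 230 passed, or 1.38%. The median log2 difference, bHR minus bLR, was 0.10 over the 7 genes and -0.007 over all genes, and 47.2% of all genes had a higher mean in bHR. The 7 genes share libraries and cell types, so their common sign is not 7 separate observations. By unadjusted p under 0.05, 2 of the 7 differed, Glul and Slc1a3, where 15.1% of all genes did.

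**Figure D1:**
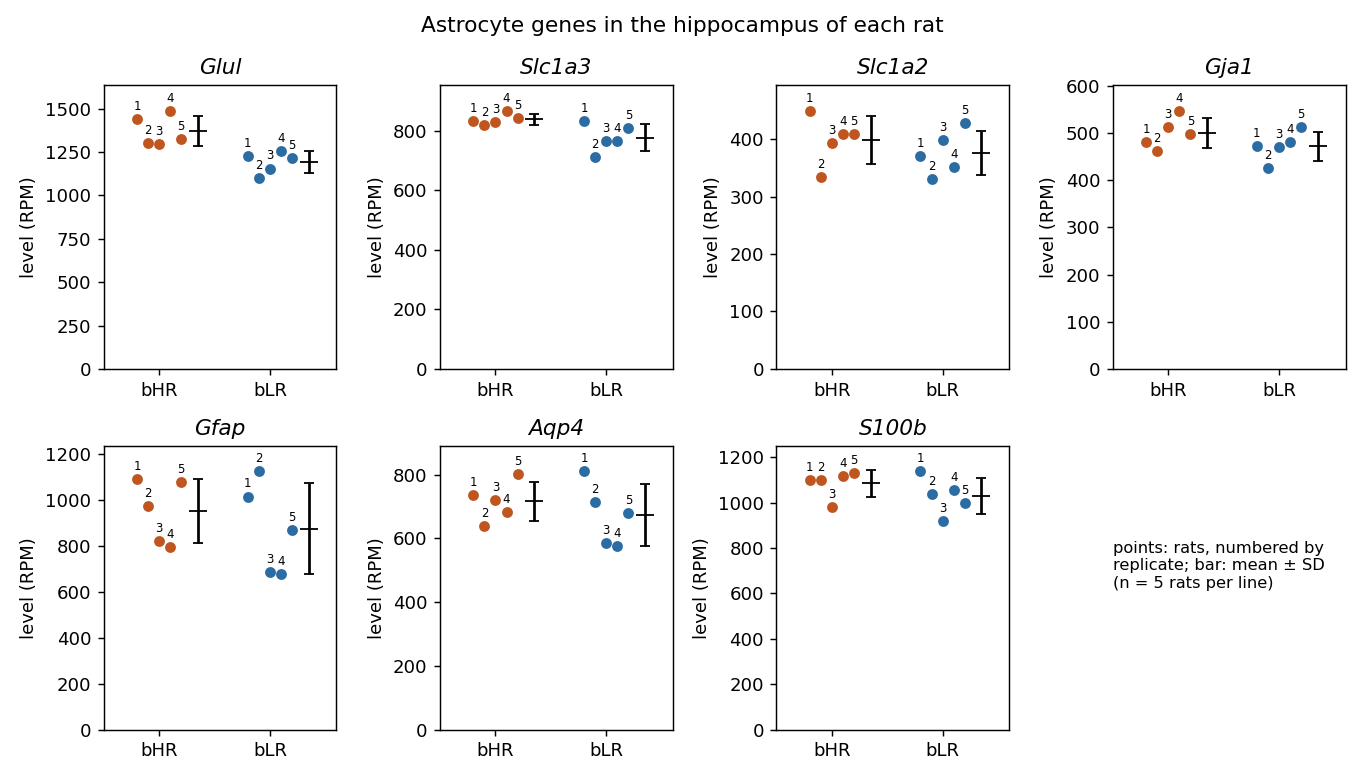
Levels of the 7 genes in RPM (vertical axis, from 0) in each rat, by line on the horizontal axis; points are rats numbered by replicate and bars are mean ± SD (n = 5 per line). The lines are apart for Glul, overlap through bLR replicate 1 alone for Slc1a3, and overlap widely for the other genes.

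Glul, glutamine synthetase, had the largest difference of the 7. Its levels were 1440, 1302, 1298, 1488 and 1325 RPM in bHR replicates 1 to 5 and 1226, 1101, 1155, 1257 and 1216 RPM in bLR replicates 1 to 5. Every bHR rat was above every bLR rat, with bHR replicate 3 the lowest of its line and bLR replicate 4 the highest of the other. The gap between these rats was 0.047 on the log2 scale, narrower than the SD within either line. Such a separation with bHR higher was found in 1.99% of all genes, and in 1 of the 7 here. In either direction, the lines were apart for 691 of the 16643 genes. Means were 1371 ± 87.3 RPM in bHR and 1191 ± 62.5 RPM in bLR (SD, n = 5 each), a log2 fold change of 0.20 (SE 0.051), or 1.15-fold with a 95% interval of 1.07 to 1.24. The limma adjusted p over all genes was 0.078, and Glul ranked 395th by p. Exchanging rats between lines gave an exact permutation p of 0.0079 (two-sided), the smallest this design allows. Any gene whose lines do not overlap gets that p.

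The Glul difference did not reach the threshold, and under 1 other scaling, quantile normalization, it did (log2 fold change 0.24, limma adjusted p = 0.043). When the score was added to the fit, the log2 difference was 0.12 (limma adjusted p = 0.44). Over 21 alternative settings the adjusted p ran from 0.043 to 0.44. RefSeq lists 2 Glul pseudogenes, and 4 other genes overlap the annotated span of Glul. The sources used here do not give how reads shared with them were counted.

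Slc1a3, the glutamate transporter GLAST, was the most even of the 7 genes among bHR rats. Its levels were 832.6, 821.1, 830.3, 867.4 and 841.9 RPM in bHR replicates 1 to 5 and 831.8, 712.6, 766.1, 764.1 and 807.9 RPM in bLR. The lines overlapped through bLR replicate 1 alone, which lay above bHR replicates 2 and 3, and 23 of the 25 pairings of a bHR with a bLR rat had the bHR rat higher. Means were 839 ± 17.7 RPM in bHR and 777 ± 45.8 RPM in bLR (SD, n = 5 each). The log2 fold change was 0.11 (SE 0.041, limma adjusted p = 0.22), or 1.08-fold with a 95% interval of 1.02 to 1.15. The exact permutation test gave p = 0.024.

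Slc1a2, the transporter Glt-1, showed no such separation. It measured 449.3, 333.8, 392.7, 409.5 and 409.1 RPM in bHR replicates 1 to 5 and 369.8, 330.5, 397.9, 351.9 and 427.2 RPM in bLR. The second rat of each line was the lowest, and the lines overlapped over most of their range. The log2 fold change was 0.09 (SE 0.082, limma adjusted p = 0.67), and its 95% interval of 0.938-fold to 1.20-fold leaves room for a difference as large as that of Glul.

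Gja1, connexin 43, measured 480.2, 462.7, 512.9, 547.3 and 498.0 RPM in bHR replicates 1 to 5 and 472.2, 425.9, 469.4, 481.3 and 512.1 RPM in bLR. Its lowest value was in bLR replicate 2 and its highest in bHR replicate 4, and the other 8 rats of both lines were interleaved. The log2 fold change was 0.08 (SE 0.054, limma adjusted p = 0.51), with a 95% interval of 0.976-fold to 1.15-fold.

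Gfap, the filament gene, differed far more among rats of a line than between the lines. It measured 1093, 973.8, 823.8, 795.6 and 1080 RPM in bHR replicates 1 to 5 and 1016, 1125, 688.7, 677.6 and 871.6 RPM in bLR. Both the highest and the lowest of the 10 rats were bLR rats, replicates 2 and 4, which stood 1.66-fold apart. The log2 fold change between lines was 0.14 (SE 0.15, limma adjusted p = 0.71), with a 95% interval of 0.883-fold to 1.37-fold, the widest of the 7 genes.

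Aqp4, the endfoot water channel, also had both its extremes in bLR. It measured 734.3, 638.0, 721.2, 682.9 and 802.0 RPM in bHR replicates 1 to 5 and 809.5, 714.7, 584.5, 576.6 and 678.5 RPM in bLR. The bLR replicates 3 and 4, which were lowest for Gfap, were lowest here too, and bLR replicate 1 was highest. The log2 fold change was 0.10 (SE 0.091, limma adjusted p = 0.67).

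S100b, the calcium-binding protein gene, measured 1099, 1101, 981.6, 1117 and 1129 RPM in bHR replicates 1 to 5 and 1137, 1039, 920.5, 1057 and 998.6 RPM in bLR. The third rat was the lowest of each line, and bLR replicate 1 was the highest of all. The log2 fold change was 0.08 (SE 0.057, limma adjusted p = 0.58), with a 95% interval of 0.968-fold to 1.15-fold. RefSeq places Dip2a over part of S100b, and the sources used here do not state whether strand was used in counting, so reads of both genes may be mixed.

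**Figure D2:**
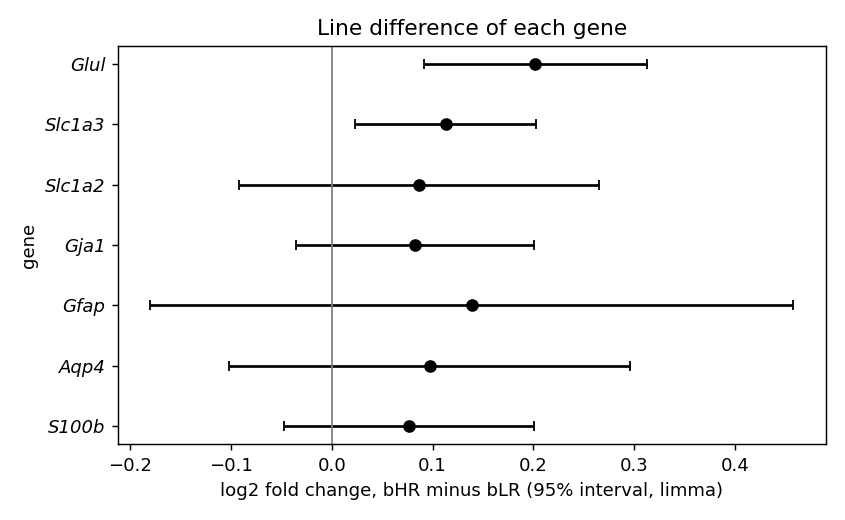
Log2 fold change of each gene, bHR minus bLR (horizontal axis), with its 95% interval from limma; the vertical line marks no difference. The intervals of Glul and Slc1a3 lie above 0 before adjustment and those of the other 5 genes include it.

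Ratios within a rat do not change when a library is scaled by a constant factor, though they can under quantile normalization. They were used to see whether Glul differed between lines beyond the other astrocyte genes. This comparison was chosen after the levels were seen. The log2 ratio of Glul to Gja1 was 1.45 ± 0.091 in bHR and 1.335 ± 0.060 in bLR (SD, n = 5 each), higher by 0.12 in bHR (exact permutation p = 0.048, two-sided, and 0.16 after Benjamini-Hochberg adjustment over 6 ratios). For Glul to Slc1a3 the difference was 0.09 (exact p = 0.079), and for Glul to S100b 0.125 (exact p = 0.079), with bHR higher in 22 and 19 of 25 pairings of rats. The ratios of Glul to Slc1a2, Aqp4 and Gfap differed by 0.116, 0.105 and 0.063, within the spread of the rats (exact p = 0.23, 0.41 and 0.79). No ratio passed after adjustment, so a difference in Glul beyond that of the other 6 genes was not established.

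The genes differed widely in how much rats of the same line varied. The within-line SD on the log2 scale was 0.28 for Gfap, 0.17 for Aqp4 and 0.15 for Slc1a2, against a median of 0.066 for the 1665 most abundant genes, the tenth of the table to which all 7 belong. Gfap lay above 98.6% of those genes, Aqp4 above 94.2% and Slc1a2 above 92.1%. S100b (SD 0.098), Gja1 (0.094) and Glul (0.084) lay above 77.2%, 75.0% and 68.3%. Slc1a3 was near the middle, with an SD of 0.064, above 47.5% of those genes. Its SD was 0.030 among bHR rats and 0.086 among bLR rats, a contrast that was not tested.

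To see whether the genes varied together among rats of a line, each gene's log2 values were centred on the mean of the line and Pearson's r was taken over the 10 rats for the 21 pairs. None of the 21 correlations passed after Benjamini-Hochberg adjustment, the smallest adjusted exact permutation p for r being 0.28, so no grouping of the genes was established. As a description, r was 0.49 to 0.76 among Gfap, Aqp4 and S100b and 0.49 to 0.71 among Slc1a2, Slc1a3, Gja1 and Glul. Between these genes it ran from -0.58, for Gfap with Gja1, to 0.40, for S100b with Glul, the latter close to the 0.49 of S100b with Aqp4. The order of the genes was chosen from these same values, so the higher r inside each group follows in part from that choice. The genes of a rat also share its library and its scaling.

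**Figure D3:**
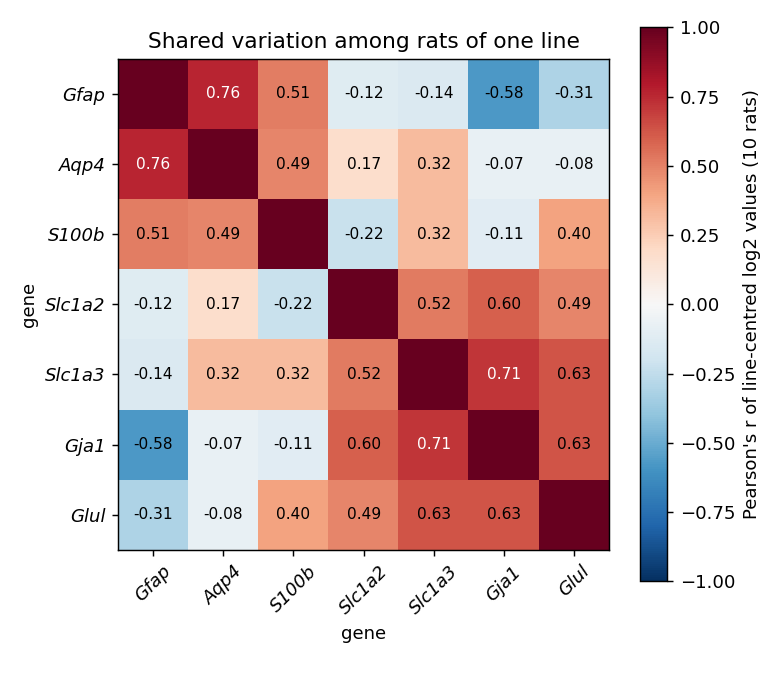
Pearson's r between the genes (both axes) of log2 values centred on the line mean, over 10 rats; red is positive and blue negative. The genes are ordered by these values. Gfap with Aqp4 is the most positive pair (0.76) and Gfap with Gja1 the most negative (-0.58), and no pair passed after adjustment.

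The closest pair was Gfap with Aqp4, at r = 0.76 and Spearman's rho = 0.87. The exact permutation test, which exchanged rats within each line, gave p = 0.033 for r and 0.013 for rho, and 0.28 and 0.26 after Benjamini-Hochberg adjustment over 21 pairs. Without the 2 rats whose line-centred Gfap value lay farthest from its median, bLR replicates 2 and 4, r was 0.72. This r, and the others below without 2 rats, kept the deviations from the full line means. Lines were not centred again, so these values are not the line-centred r given elsewhere. Slc1a3 with Gja1 had r = 0.71 and rho = 0.65 (exact permutation p = 0.028 and 0.056). Without bHR replicate 4 and bLR replicate 2, the farthest by line-centred Gja1, and with the lines not centred again, r was 0.46. Slc1a3 with Glul had r = 0.63 and rho = 0.50 (exact permutation p = 0.040 and 0.15). Without bLR replicates 1 and 2, the farthest by line-centred Slc1a3, r was 0.49. Those 3 were the pairs with an unadjusted exact p for r under 0.05. For other pairs too, r changed without the 2 rats farthest by the line-centred values of the first gene named. It went from 0.49 to 0.049 for Slc1a2 with Glul and from 0.52 to 0.088 for Slc1a2 with Slc1a3. For Gja1 with Glul it went from 0.63 to 0.25, while for Gfap with S100b it rose from 0.51 to 0.74. The rats left out depend on which gene is named first, and leaving out its extremes narrows its range. These changes therefore do not rank the pairs.

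Single rats showed how far the genes could part. In bLR replicate 2, Glul, Slc1a3, Slc1a2 and Gja1 each had the lowest level of all 10 rats, while Gfap had the highest. Relative to its line, Gfap was 0.39 higher there on the log2 scale, and Glul, Slc1a3, Gja1 and Slc1a2 were lower, at -0.11, -0.12, -0.15 and -0.18. S100b was near its line mean there, at 0.015. In bHR replicate 4, Glul, Slc1a3 and Gja1 had their highest levels, and Gfap was the lowest of its line, at -0.25 from the mean, while S100b was at 0.043. In bLR replicates 3 and 4 Gfap was -0.32 and -0.34 from the line mean and Aqp4 -0.19 and -0.21, while Glul was -0.04 and 0.08 and S100b -0.16 and 0.04. In bLR replicate 1 Gfap was at 0.24, Aqp4 at 0.28, S100b at 0.145 and Slc1a3 at 0.10. Glul was at 0.043 there, Gja1 at 0.003 and Slc1a2 at -0.016.

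**Figure D4:**
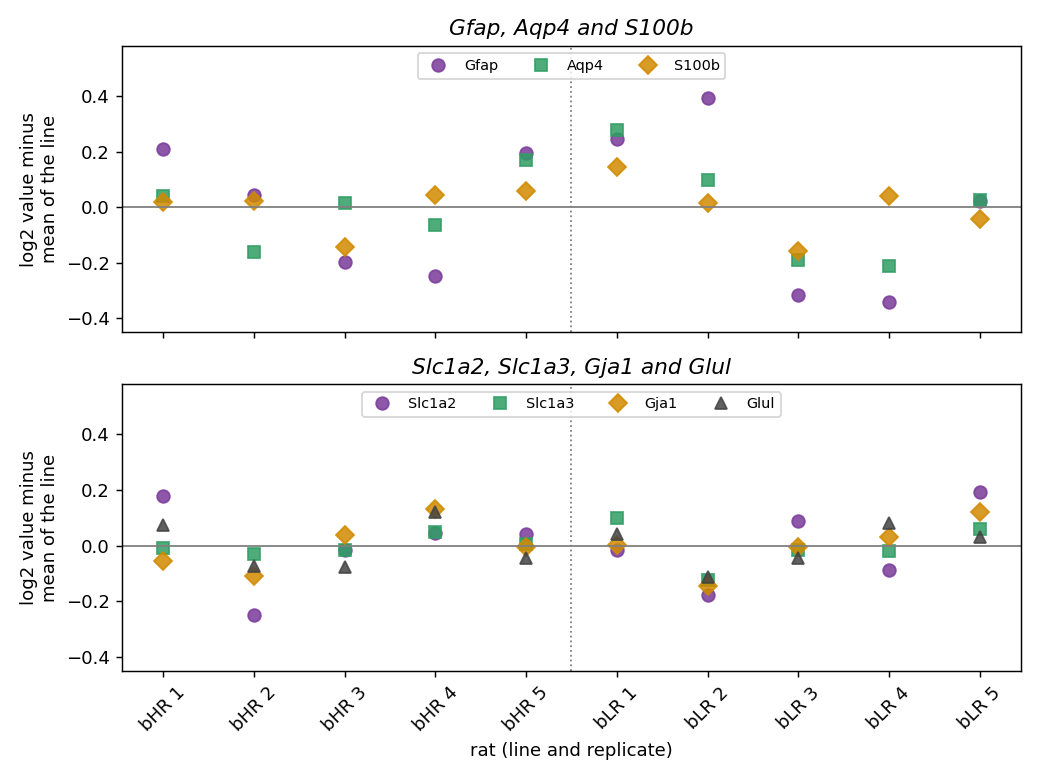
Log2 value minus the mean of the line (vertical axis) for each rat (horizontal axis), with Gfap, Aqp4 and S100b in the upper panel and Slc1a2, Slc1a3, Gja1 and Glul in the lower. In bLR replicate 2 Gfap is at 0.39 and the 4 genes of the lower panel lie between -0.18 and -0.11, with S100b at 0.015.

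The correlations depended on single rats. Without bLR replicate 2, Aqp4 with Slc1a3 had r = 0.76 in place of 0.32. That was above every pair among Slc1a2, Slc1a3, Gja1 and Glul, which then ran from 0.285 to 0.481. Gfap with Slc1a3 went from -0.14 to 0.50 and Gfap with Gja1 from -0.58 to -0.36. Gfap with Aqp4 was at 0.79 without that rat. Leaving out bLR replicate 1 instead gave r = -0.15 for Aqp4 with Slc1a3 and -0.49 for Gfap with Slc1a3. Aqp4 with S100b was then at 0.18 and Slc1a3 with Gja1 at 0.90.

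The genes were also placed among all 16642 other genes by likeness to each. For Slc1a3, Gja1 ranked 216th and Glul 492nd, so 1.29% and 2.95% of genes had a higher r with Slc1a3. For Glul, Gja1 ranked 398th and Slc1a3 414th. For Gfap, Aqp4 ranked 541st and Gja1 14597th. Many genes outside the 7 thus had a higher r with each of these 3 than any of the other astrocyte genes had. Among genes outside the 7 with a mean log2 value of at least 0, the one most like Slc1a3 was ENSRNOG00000031730 (r = 0.98 over 10 rats) and the one most like Slc1a2 was ENSRNOG00000015799 (r = 0.97), each picked as the highest of all.

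The last comparison asked whether rats of a line with a higher social interaction score had higher or lower levels, with line and score as the terms of a limma fit. Scores were 16.67 to 28.33 in bHR and 7.33 to 24.0 in bLR. None of the 7 genes passed after adjustment over all genes, and neither did any other gene, a count of 0 and 0.0% of those tested. Glul was among the 1183 genes (7.11%) with an unadjusted p under 0.05, and limma with voom weights also gave a count of 0 after adjustment.

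Glul had a slope of 0.00917 log2 units per point of the score (SE 0.00415, limma adjusted p = 0.70). The bHR rats with the highest Glul, replicates 4 and 1, had the highest scores of their line, 24.33 and 28.33, but bHR replicate 5, at 24.0, had Glul below its line mean (-0.046 on the log2 scale). The bLR rat with the highest Glul, replicate 4, had a score of 24.0, the highest of bLR. The bLR rat with the lowest Glul, replicate 2, scored 8.0, and bLR replicate 5, with the lowest score of all, 7.33, had Glul above its line mean (0.031). The slope was 0.00746 to 0.0119 without any 1 rat. Gfap and Aqp4 had slopes of -0.0168 (SE 0.0136, limma adjusted p = 0.81) and -0.00776 (SE 0.00873, limma adjusted p = 0.88). Both rested on bLR replicate 4, without which they were -0.000395 and 0.00536. The slopes of S100b, Gja1, Slc1a2 and Slc1a3 lay between 0.000842 and 0.00611, each smaller than its SE.

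**Figure D5:**
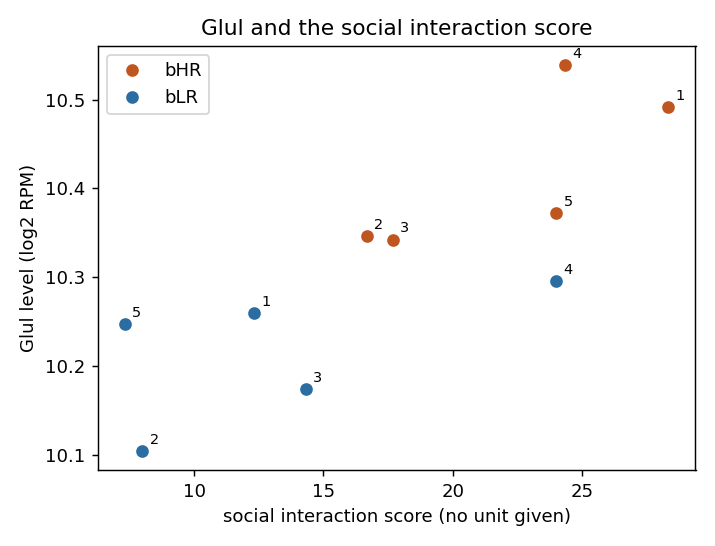
Glul level in log2 RPM (vertical axis) against the social interaction score (horizontal axis) of each rat, coloured by line and numbered by replicate. All 5 bHR rats lie above all 5 bLR rats, and the bLR rat with the lowest score, replicate 5, is above the mean of its line.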

How the data were processed

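Per the labels' protocols, 50-base single reads from RNA with an integrity number above 8 were aligned to Rnor_6.0 with Subread, and featureCounts gave counts for Ensembl 85 genes, kept where 5 or more samples had 16 or more. Over these 10 libraries 505 of the 16643 genes in the table do not meet that filter. The sources used here give no strand setting. The deposited values are log2 RPM (reads scaled to library size) made by the authors with limma voom (R 3.2.2, per the submitters' processing notes). RPM here is 2 to that power. A constant per library turned 100.0% of values into whole reads within 0.01 reads, and these reads gave the depths. No pair of libraries of a line agreed within sampling noise.

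The line fit used the log2 values in limma 3.58.1 (R 4.3.3), with line alone as term, an intensity trend and Benjamini-Hochberg adjustment over 16643 genes. The score model held line and score. Exact permutation tests ran in Python 3.11.15 with scipy 1.17.1. The fits were tested on simulated data with larger effects than those of the 7 genes, so power at these sizes was not tested. All 7 genes are named, with the gene most like Slc1a2 and that most like Slc1a3. The genes, lists and tests were chosen with earlier results of these data known. The lists of other astrocyte, glutamate cycle and cell type genes were not analysed here, because 0 identifiers matched the RefSeq table. The alternatives covered the variance prior, filter, scaling, weights, pseudocount, block, covariate, threshold and each rat left out.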

Additional observations from a re-analysis of the deposited data

Results flagged for a closer look

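A value standing apart from the other 4 rats of its line was looked for in 24 groups of 5, covering the 7 genes, the social score and 4 measures of the libraries. Chance alone gives such a value in about 1 of 20 groups. S100b in bHR replicate 3 was 9.94 on the log2 scale, with the nearest bHR rat at 10.10, and without that rat the S100b difference between lines was 0.11 (limma adjusted p = 0.42). The library of bLR replicate 5 stood apart in 2 measures. The ratio of effective size to total reads was 0.933 there and 1.005 in the nearest bLR library. The share of reads from the top gene was 4.06% there and 2.14% in the nearest. Without that library the Glul difference was 0.21 (limma adjusted p = 0.095) and the Slc1a3 difference 0.13 (limma adjusted p = 0.19). The Slc1a2 difference was then 0.135 (limma adjusted p = 0.46), against 0.087 with all rats. The Gja1 difference was 0.113 (limma adjusted p = 0.34), against 0.083.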

How the results depend on the processing

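All 7 line differences kept their sign in all 21 settings, and the one adjusted p that crossed 0.05 was that of Glul under quantile normalization (limma, 0.043). Without 1 rat, the difference ran from 0.17 to 0.22 for Glul, 0.082 to 0.14 for Slc1a3, 0.042 to 0.15 for Slc1a2, 0.047 to 0.11 for Gja1, 0.054 to 0.24 for Gfap, 0.044 to 0.17 for Aqp4 and 0.037 to 0.11 for S100b. The 230 genes changed over the whole table became 152 without the intensity trend, 46 with the score as covariate and 503 at an adjusted p under 0.10, and ran from 108 to 216 without 1 rat: 135, 109, 108 and 115 without bHR replicate 1, 2, 3 and 4, and 121 and 138 without bLR replicate 2 and 3. For changes with all rats the cause was not tested. Genes following the score numbered 1 without the trend and 0 without any 1 rat. The slopes ran from -0.0273 to -0.000395 for Gfap, -0.0137 to 0.00536 for Aqp4, -0.000878 to 0.00691 for Gja1, -0.000169 to 0.022 for Slc1a2 and -0.0023 to 0.00396 for Slc1a3 without 1 rat.

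The labels do not pair the rats by replicate number. Over all genes centred on the line means, r of same-numbered libraries ran from -0.146 to 0.101. These values cannot show that such rats shared nothing. With the replicate block 108 genes changed and 1 followed the score, Glul had a limma adjusted p of 0.066, and the slopes were -0.00105 for S100b, -0.0117 for Gja1, -0.00142 for Slc1a2, -0.00858 for Slc1a3 and -0.00262 for Glul. The correlations shown, the ratios and their tests were added or grouped after the values were seen. The spread between rats, with any from preparing their samples, was above the counting error for every gene. The 95% intervals of Gfap, Aqp4 and Slc1a2 reach 1.37-fold, 1.23-fold and 1.20-fold.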
